A study of Mus musculus with 8 samples.

Results

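Nrk, Tnik, Mink1, Map4k4, Map4k1, Map4k2, Map4k3 and Map4k5 are 8 protein kinases of the germinal center kinase family, and they were taken by gene name from the 56605 distinct probes of the array. They had 20 probes and made up 8 of the 20210 genes with a detected probe. Nrk was selected on its signal in these same aged and young pools, so its values are a description and carry no test, whereas the 7 relatives were taken for their family membership. RNA came from cardiac mesenchymal stromal cells (cMSCs), fibroblast-like cells of the heart that were sorted for Sca-1 and PDGFRα and against CD31 and CD45. There were 4 pools from aged male C57BL/6 mice (20 months, replicates 1, 2, 3 and 4) and 4 pools from young male C57BL/6 mice (5 months, replicates 2, 3, 4 and 5), and the labels name no treatment or allele in either group. A pool held 3 mice (the code in the label of aged replicate 4 may stand for 2), and there was 1 array for each pool. Pooled mice give a spread between pools and not between animals.

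Germinal center kinases are relatives of the yeast kinase sterile-20. They carry a kinase domain at the amino end, and the members described here also carry a citron homology (CNH) domain at the carboxyl end. Several of them act above the MAP3 kinases in the cascade that ends in the Jun N-terminal kinases (JNKs), downstream of inflammatory receptors and cell stress. Nrk, Tnik, Mink1 and Map4k4 form group IV of the family, and Map4k1, Map4k2, Map4k3 and Map4k5 form group I. Nrk, also called NESK, lies on the X chromosome and is known in mice from embryonic skeletal muscle and from the placenta, where its loss leads to overgrowth.

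The Nrk promoter is shown because Nrk carried the largest difference among these kinases. RefSeq places it at chrX:138914180-138914479 of GRCm38.p6, on the plus strand, around the start of the gene. Capitals mark the matches to GGGCGG on either strand (GC box) and to CCAAT on either strand (CCAAT box).
Nrk promoter: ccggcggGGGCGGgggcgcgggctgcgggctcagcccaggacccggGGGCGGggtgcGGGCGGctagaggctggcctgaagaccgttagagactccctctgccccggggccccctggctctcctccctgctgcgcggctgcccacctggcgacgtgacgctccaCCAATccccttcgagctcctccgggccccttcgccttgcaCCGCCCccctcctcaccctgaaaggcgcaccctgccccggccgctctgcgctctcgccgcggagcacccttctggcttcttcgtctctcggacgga
These 300 bases held 31 CpG dinucleotides and were 74.7% G or C, and 89.4% of 32851 RefSeq promoters of the same length held fewer CpG dinucleotides. They contained 4 GC boxes and 1 CCAAT box, and 35.7% of all promoters held a GC box and 37.4% a CCAAT box on either strand. The core of the cAMP response element, TGACG, was found once in the Nrk promoter and in 20.8% of all promoters. TATAAA and CACGTG, searched on both strands, were not among these letters and were found in 13.6% and 7.15% of all promoters. Of the 8 kinases, 6 had a promoter in the table, and CpG counts in those of the other 5 ran between 4 in the second of the 2 Map4k1 promoters and 55 in the Map4k3 promoter.

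The Nrk message was detected in all young pools and in no aged pool. Its only probe, A_66_P128250, lies at chrX:135543163-135543222 of mm9 and begins at base 6135 of the transcript named in the array files. Signals are given on a log2 scale on which 0 is the 75th percentile of the processed signals of an array. Nrk gave -7.13, -6.87, -6.59 and -6.76 in aged replicates 1, 2, 3 and 4, against -3.40, -3.16, -2.98 and -2.93 in young replicates 2, 3, 4 and 5. The groups did not overlap, and the young pools lay close together. The means were -6.84 ± 0.23 in aged pools and -3.12 ± 0.21 in young pools (SD, n = 4 each), a measured difference of -3.72. The probe was well above background, as the scanner software defines it, on 0 of 4 aged and 4 of 4 young arrays.

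The aged signals did not measure an amount of Nrk message. On all 4 aged arrays and on 0 young arrays the scanner software had replaced the signal of the spot by a floor value. Before that step, the spot differed from its local background by -7.58 to 4.63 intensity units on the aged arrays and by 39.0 to 68.5 units on the young arrays. The detection limit of an array, its dimmest probe well above background, lay between -4.92 and -4.39 on the aged arrays and between -5.32 and -4.41 on the young arrays. With the aged pools placed at that limit, Nrk was 2.84-fold lower in them, a log2 bound of 1.51. This bound is approximate, because a spot brighter than the limit can still go undetected. In aged replicate 2 the Map4k5 probe A_52_P57057 did so, with a processed signal of 25.2 where the dimmest detected signal was 21.5. Of the 19166 genes that were well above background on all 8 arrays, 10 had a fall larger than this bound, and the lowest of their log2 fold changes was -2.86. Other scales gave Nrk a smaller difference, -0.87 with the normexp method of background correction and an added offset of 50, and -1.59 in the log2 table of the authors, where its mean was 4.71 in aged and 6.31 in young pools. Within the rows of the slide, which each held 2 aged and 2 young arrays, the measured difference was -3.90 in row 1 and -3.53 in row 2. In bulk samples such as these, fewer cells that express a gene and less message per cell cannot be told apart.

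**Figure D1:**
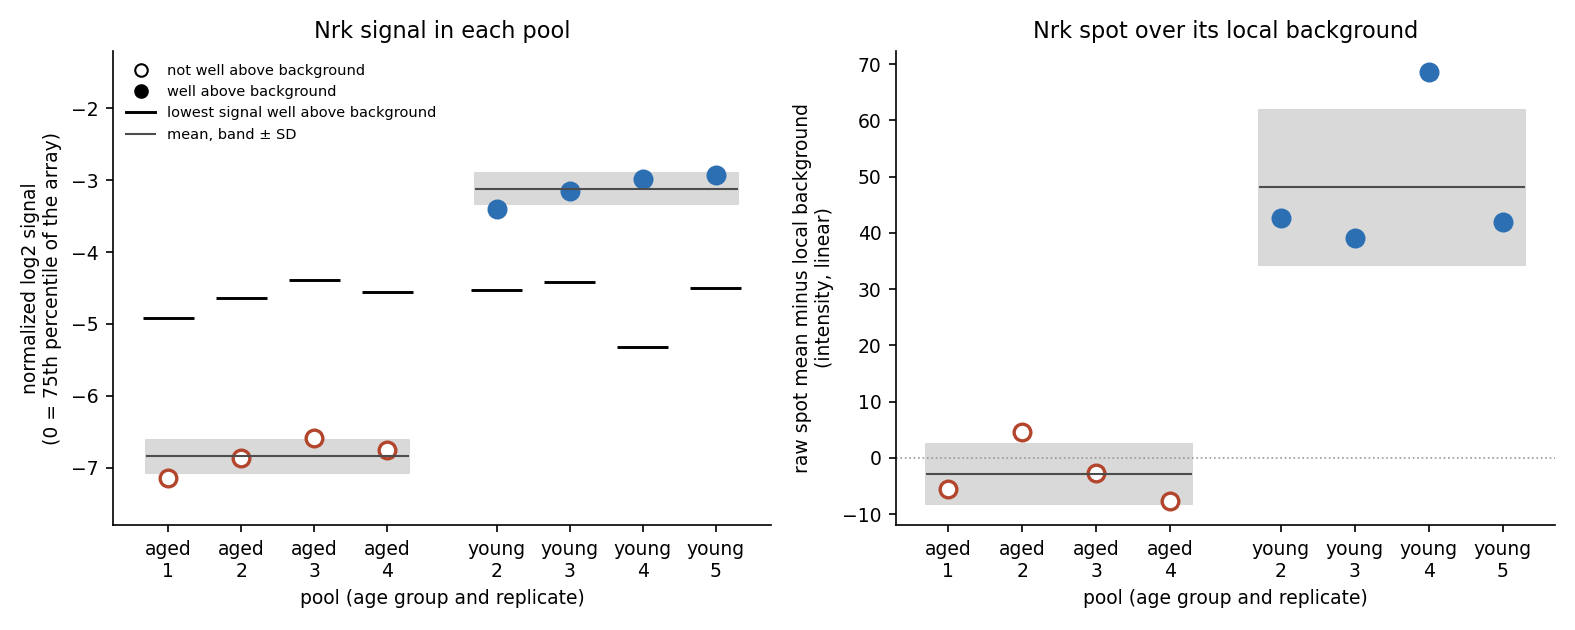
The left panel shows the normalized log2 signal of Nrk (y axis, 0 is the 75th percentile of the array) in each aged and young pool (x axis), with a black tick at the lowest signal well above background on that array, and the right panel shows the raw spot mean minus its local background in linear intensity units. Open points were not well above background, grey lines and bands are group means ± SD (n = 4), and the 4 aged pools lie below their ticks and within -7.58 to 4.63 units of the local background, while the 4 young pools lie above their ticks.

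Few probes shared this pattern of detection. Well above background on all young and no aged arrays were 18 of 56605 distinct probes (0.0318%), and 23 probes (0.0406%) showed the reverse. Among genes compared, 14 had the pattern of Nrk. Neighbouring genes on the X chromosome gave no readable signal in either group. Of the nearest protein-coding genes on both sides in the gene table, Esx1, Il1rapl2, Tex13a, Serpina7 and 4930513O06Rik had 7 probes on the array and 4933428M09Rik had none. Not one of the 7 probes was detected throughout a group, and 5 of them were detected on no array. The exceptions were 2 probes of Il1rapl2, an interleukin-1 receptor accessory protein-like gene. Of these, A_55_P1954246 was well above background on 1 aged and 0 young arrays and A_66_P125238 on 1 aged and 2 young arrays.

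The genes whose profile over the 8 pools was nearest to that of Nrk, by the root mean square (RMS) difference of centred log2 signals among 15111 other genes with a symbol, were Adgrg6, D430019H16Rik, Slc38a4, Evl and Krt20. This choice fixed their direction, so it is no result in itself. Adgrg6, a receptor of the adhesion class that couples to G proteins, was at an RMS distance of 0.49 and averaged -6.60 ± 0.22 in aged and -3.86 ± 0.17 in young pools (SD, n = 4 each). It was well above background on 0 aged and 4 young arrays, and the same approximate bound put it 1.70-fold lower in aged pools. D430019H16Rik was detected in the same way, at a distance of 0.59, with means of -5.44 ± 0.57 in aged and -2.44 ± 0.41 in young pools. Its approximate bound was a 4.54-fold lower signal in aged pools. Where a gene stands at the floor its pools have no order, so the likeness of these profiles within the aged group cannot be read. Slc38a4, a neutral amino acid transporter, was still detected on 3 of 4 aged arrays and differed by -2.99 on the log2 scale. Evl, which acts on actin filaments, was detected on all 8 arrays, with 1.02, 1.28, 0.96 and 1.15 in aged replicates 1 to 4, against 2.98, 3.11, 3.07 and 2.88 in young replicates 2 to 5. Krt20, a keratin, had a log2 difference of -1.83 and was detected on 3 aged and 4 young arrays.

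**Figure D2:**
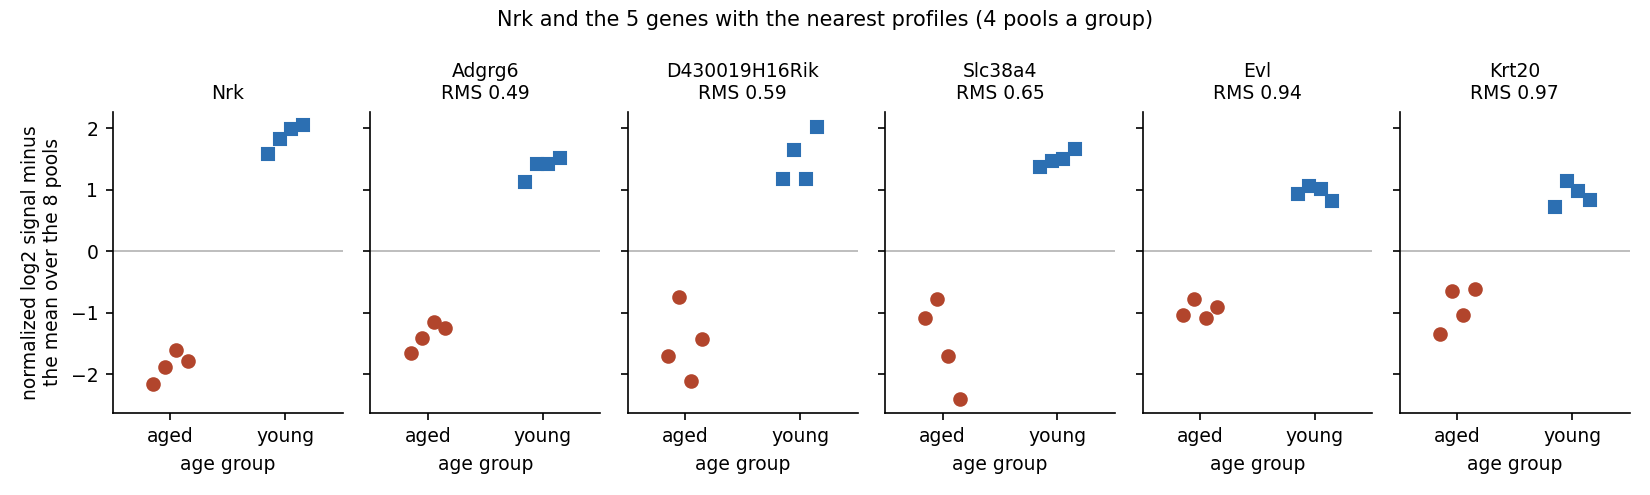
Each panel shows 1 gene, with the normalized log2 signal of a pool minus the mean of the 8 pools on the y axis and the age group on the x axis, aged pools as circles and young pools as squares. The RMS distance to the Nrk profile is 0.49 for Adgrg6, 0.59 for D430019H16Rik, 0.65 for Slc38a4, 0.94 for Evl and 0.97 for Krt20, and in each panel all aged pools lie below all young pools.

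The 7 relatives of Nrk were detected in both groups and did not pass the test. With 1 probe for each gene, limma gave 0 of 7 that rose and 0 that fell (adjusted p under 0.05), where 2.25% of all 20210 genes rose and 0.802% fell. At an unadjusted p under 0.05 there was 1 relative, Map4k3, against 13.9% of all genes, and the same gene was the only 1 of 7 whose groups did not overlap, against 10.4%. The log2 fold changes of aged minus young pools ran between -0.33 and 0.17, with a median of 0.098 where the median of all genes was -0.0053. The 95% confidence intervals of all 7 lay within -0.85 and 0.54. Log2 differences below -0.85 or above 0.54 thus lay outside the interval of every relative, and not all smaller ones did. The same counts of 0 were reached under each alternative way of processing that was tried.

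**Figure D3:**
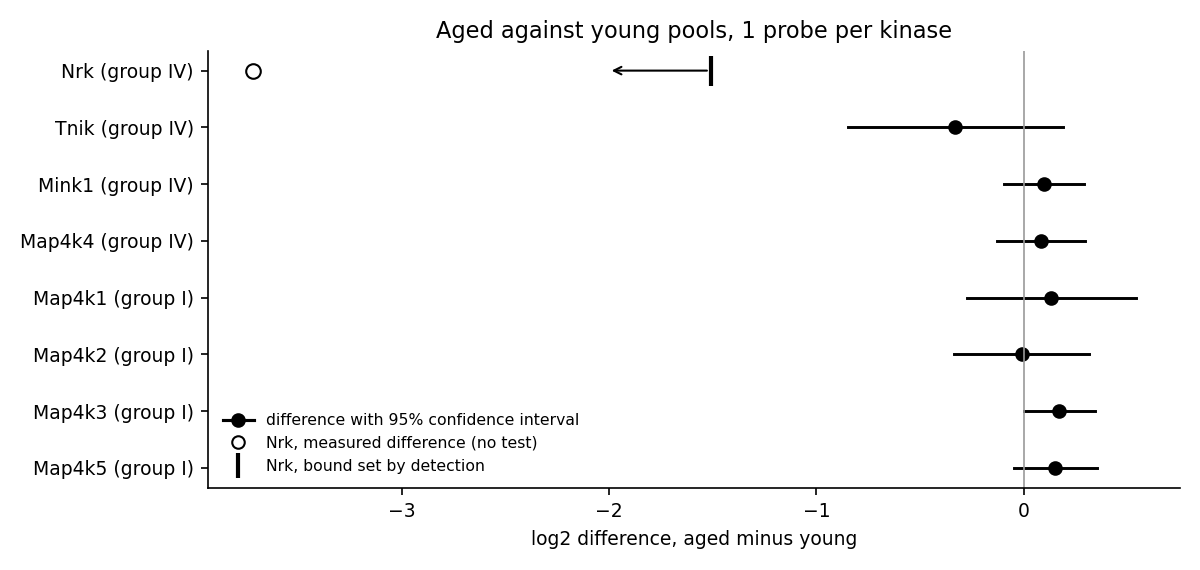
Log2 difference of aged minus young pools (x axis) for each kinase (y axis), with the 95% confidence interval for the 7 relatives, the measured difference of Nrk as an open circle without interval or test, and the bound set by its detection limit as a tick with an arrow. Nrk stands at -3.72 with its bound at 1.51 below 0, and the intervals of all relatives but Map4k3, whose lower end is at 0.0016, include 0.

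Among the relatives in group IV, Tnik had the widest interval, and its detected probes differed in sign. Tnik, the TRAF2- and NCK-interacting kinase, is known to bind TCF factors in Wnt signalling and to act downstream of the small GTPase Rap2. Its brightest probe, A_55_P2722180 (chr3:28259496-28259555 of mm9), gave -0.33, -0.43, 0.01 and -0.13 in aged replicates 1 to 4, against -0.40, 0.12, -0.04 and 0.77 in young replicates 2 to 5. The groups overlapped, and young replicate 5 was the highest of the 8 pools. The log2 fold change was -0.33 (standard error 0.23, adjusted p = 0.642), with -0.67 in slide row 1 and 0.015 in row 2. It was -0.11 without young replicate 5, -0.50 without young replicate 2, -0.17 as the mean of the detected Tnik probes and -0.058 with array weights.

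Another Tnik probe, A_52_P663757 (chr3:28569035-28569094), separated the groups. It gave -0.85, -0.78, -0.85 and -0.66 in aged replicates 1 to 4, against -0.47, -0.58, -0.29 and -0.49 in young replicates 2 to 5. When each probe was tested on its own over 30824 probes, its log2 fold change was -0.32 (standard error 0.092, unadjusted p = 0.00698) and its adjusted p was 0.131. Quality weights for the arrays brought this probe past the threshold, with -0.36 and adjusted p = 0.0332. A_51_P174061 (chr3:28567376-28567435) was lower in aged pools by a similar amount, -0.29 (standard error 0.11, adjusted p = 0.292), without overlap of the groups. The fourth detected probe, A_52_P337948, had the opposite sign, with 0.24 (standard error 0.17, adjusted p = 0.644). It gave -2.09, -2.52, -2.09 and -2.33 in aged replicates 1 to 4, against -2.76, -2.10, -2.73 and -2.41 in young replicates 2 to 5. The fifth, A_52_P534269, was well above background on 0 of 8 arrays. So the probes of Tnik disagreed in sign, and none passed the test without weights.

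The sequence of A_52_P337948 is shown because it is the detected Tnik probe whose sign differed from the others. Its 60 bases cover chr3:28562951-28564621 of mm9, a span of 1671 bases, and begin at base 4064 of its transcript. The array files name 4 transcripts for the 5 Tnik probes, and only A_51_P174061 and A_52_P663757 share one. Whether the probes read the same transcripts was not tested.
Tnik probe A_52_P337948: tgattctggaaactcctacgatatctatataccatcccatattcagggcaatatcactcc

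Mink1 and Map4k4, the other relatives in group IV, showed small positive differences at every probe. Mink1, the misshapen-like kinase, had 3 probes with log2 fold changes of 0.098 to 0.14. Its brightest, A_55_P2144110 (chr11:70427926-70427984), gave 2.70, 2.85, 2.70 and 2.64 in aged replicates 1 to 4, against 2.69, 2.70, 2.64 and 2.48 in young replicates 2 to 5 (0.098, standard error 0.085, adjusted p = 0.741). This probe shares 55 bases with A_55_P2142873, so those probes are not independent readings. Map4k4, which activates JNK and takes part in the turnover of focal adhesions, gave 4.68, 4.91, 4.76 and 4.77 in aged replicates 1 to 4, against 4.81, 4.60, 4.81 and 4.56 in young replicates 2 to 5. The groups overlapped, and the log2 fold change of this probe, A_51_P439876 (chr1:40082906-40082965), was 0.083 (standard error 0.094, adjusted p = 0.825). The second Map4k4 probe, A_55_P1987914, differed by 0.13 (standard error 0.089, adjusted p = 0.625).

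In group I, Map4k3 came nearest to a difference. Map4k3, also called GLK, is known to link amino acid supply to mTORC1. Its brighter probe, A_51_P504605 (chr17:80980283-80980342), gave 0.12, 0.05, 0.06 and 0.18 in aged replicates 1 to 4, against -0.10, -0.12, -0.09 and 0.03 in young replicates 2 to 5. The aged pools all lay above the young pools, by a small margin. The log2 fold change was 0.17 (standard error 0.075, unadjusted p = 0.0483, adjusted p = 0.353), with 0.197 in slide row 1 and 0.147 in row 2. The adjusted p stayed between 0.125 and 0.813 over the alternatives. The second probe of Map4k3, A_52_P320044, did not separate the groups, with 0.070 (standard error 0.091, adjusted p = 0.854).

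Map4k2, the kinase first named germinal center kinase, had the fold change nearest to 0. Its brightest probe, A_66_P130683 (chr19:6353804-6353863), gave -0.38, -0.11, -0.28 and -0.39 in aged replicates 1 to 4, against -0.07, -0.41, -0.04 and -0.61 in young replicates 2 to 5. The log2 fold change was -0.0098 (standard error 0.14, adjusted p = 0.990), with a 95% confidence interval of -0.33 to 0.31, and its sign changed under 5 alternatives. The other Map4k2 probes differed by -0.10 (standard error 0.12, adjusted p = 0.822) for A_51_P458291 and by -0.16 (standard error 0.097, adjusted p = 0.558) for A_52_P204689. They are printed because they overlap in the transcript, so their like values are not independent. Capitals mark the 20 bases that both contain, A_51_P458291 covers chr19:6353165-6353311 and A_52_P204689 covers chr19:6353292-6353457 of mm9, and both run on the plus strand.
Map4k2 probe A_51_P458291: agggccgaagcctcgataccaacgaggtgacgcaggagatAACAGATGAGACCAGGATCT
Map4k2 probe A_52_P204689: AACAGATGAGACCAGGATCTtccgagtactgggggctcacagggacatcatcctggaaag

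Map4k5 and Map4k1 did not pass the test either. Map4k5, which passes signals of TNF receptors to JNK, had 3 probes with differences of 0.15 to 0.24. Its brightest, A_55_P2006634 (chr12:70904746-70904805), gave 2.96, 3.07, 2.98 and 2.92 in aged replicates 1 to 4, against 2.92, 2.72, 2.97 and 2.73 in young replicates 2 to 5 (0.15, standard error 0.088, adjusted p = 0.542). Of its dimmer probes, A_52_P57057 was well above background on 3 aged and 4 young arrays and had a standard error of 0.33. Map4k1, also called HPK1, is known from blood cells, where it restrains T cell receptor signalling. Its single probe, A_55_P2735435 (chr7:29788227-29788286), was well above background on all 8 arrays and gave -4.40, -3.75, -3.51 and -3.82 in aged replicates 1 to 4, against -4.19, -3.89, -4.02 and -3.92 in young replicates 2 to 5. The signal was near the floor. Its spot stood 7.19 to 31.1 intensity units above its local background on the aged arrays and 11.8 to 20.0 on the young arrays. The lowest and the highest pool were both aged, and the log2 fold change was 0.13 (standard error 0.18, adjusted p = 0.862), with -0.20 in slide row 1 and 0.47 in row 2. It was 0.31 without aged replicate 1, 0.015 without aged replicate 3 and 0.072 without young replicate 2, and other scales gave 0.075 (quantile normalization), 0.036 (normexp) and 0.027 (the table of the authors). Of 13 leukocyte markers 9 were tested and 1 rose, Cd2, with 1.07 (standard error 0.22, adjusted p = 0.0407), beside 2.25% of all genes. Their summed linear signal, relative to the 75th percentile, was 46.0 to 69.1 in aged and 38.0 to 56.2 in young pools. Most of that sum came from Itgam, with mean log2 signals of 5.37 in aged and 5.03 in young pools. Among lymphocyte markers, Cd3e and Ms4a1 were well above background on all 8 arrays. Cd2 was so on 4 aged and 3 young arrays, and thus passed the filter through the aged group only. Cd3g, Cd79a and Cd79b did not pass the filter. The part of such cells in the Map4k1 signal was not tested.

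Probe by probe, 18 of the 19 probes of the relatives were detected, and by limma's adjusted p 0 rose and 0 fell, beside 1.79% of all 30824 probes that rose and 0.642% that fell. An unadjusted p under 0.05 was reached by 2 probes, both of Tnik, against 13.5% of all probes. Groups did not overlap at 3 probes, 2 of Tnik and 1 of Map4k3, against 9.93%. Signal was higher in aged pools at 12 of the 18 detected probes, and the median difference was 0.11. That count has no share of all probes beside it, and probes of the same gene, some sharing bases, are not independent readings.

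**Figure D4:**
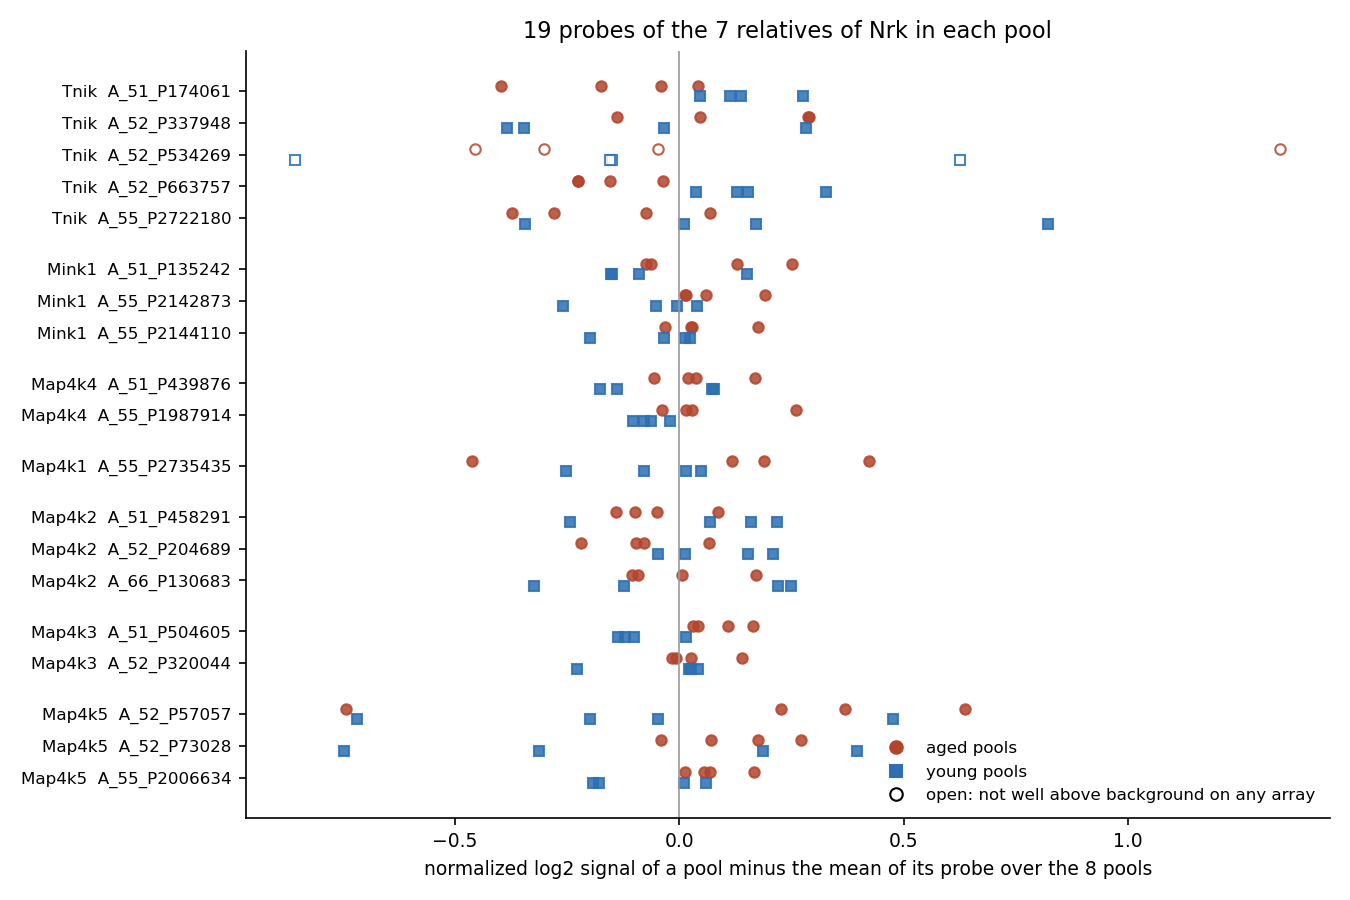
Normalized log2 signal of each pool minus the mean of its probe over the 8 pools (x axis) for the 19 probes of the 7 relatives (y axis), with aged pools as circles above and young pools as squares below. Open symbols mark the 1 Tnik probe that no array detected, and only Tnik A_51_P174061, Tnik A_52_P663757 and Map4k3 A_51_P504605 show groups that do not overlap.

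Genes around these kinases were examined as 8 lists, other sterile-20 kinases, 3 lists along the JNK cascade, adaptors and partners, the Hippo pathway, genes tied to Nrk with the AKT kinases, and other genes with a CNH domain. Of 95 genes 88 were tested, and by limma 1 rose and 0 fell, where 2.25% of all genes rose and 0.802% fell. An unadjusted p under 0.05 was reached by 6 of the 88, against 13.9% of all genes, and the lists had a median log2 fold change of -0.024. Groups did not overlap for 2 genes (2.27%), below the 10.4% of all genes. The gene that rose was Pak1, a sterile-20 kinase driven by the small GTPases Rac and Cdc42, with -1.19, -1.21, -1.22 and -1.28 in aged replicates 1 to 4, against -1.64, -1.82, -1.77 and -1.59 in young replicates 2 to 5. Its log2 fold change was 0.48 (standard error 0.080, adjusted p = 0.0163). That call was lost without aged replicates 1 or 3 or young replicates 3 or 4 (adjusted p between 0.0511 and 0.0609), with the array median as scale (0.0762), with normexp (0.0667) and without a filter on dim probes (0.0962). Replicate blocks also lost it, by number (0.242) and by pool code (0.0856).

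Along the JNK cascade, 0 of 15 tested MAP3 kinases and their TAB partners, 0 of 8 MAP2 kinases, JNKs and scaffolds, and 0 of 13 targets and phosphatases rose or fell. In the first list the largest difference was that of Map3k20, a stress-activated MAP3 kinase, with 0.49 (standard error 0.18, adjusted p = 0.234). In the second it was that of the JNK scaffold gene Mapk8ip2, with -0.17 (standard error 0.43, adjusted p = 0.937). Mapk8ip2 was well above background on 3 aged and 4 young arrays. In the third it was that of Dusp4, a phosphatase of MAP kinases, with 0.43 (standard error 0.11, adjusted p = 0.0874). For Dusp4 the groups did not overlap, with -1.90 the lowest aged and -1.97 the highest young value. Medians of the 3 lists were -0.0036, -0.042 and -0.0029, where that of all genes was -0.0053. Among 13 tested adaptors and partners the largest difference was that of Rap2a, the small GTPase above Tnik and Mink1, with -0.18 (standard error 0.087, adjusted p = 0.403). Among 11 tested Hippo pathway genes it was that of Mob1b, a cofactor of the LATS kinases, with 0.22 (standard error 0.11, adjusted p = 0.476). Among cofilin and AKT genes, 0 of 5 rose or fell, and the largest difference was that of Akt2 with -0.14 (standard error 0.099, adjusted p = 0.641). Of 3 other CNH domain genes, Cit, the citron kinase that gave the domain its name, differed by -0.39 (standard error 0.58, adjusted p = 0.877).

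**Figure D5:**
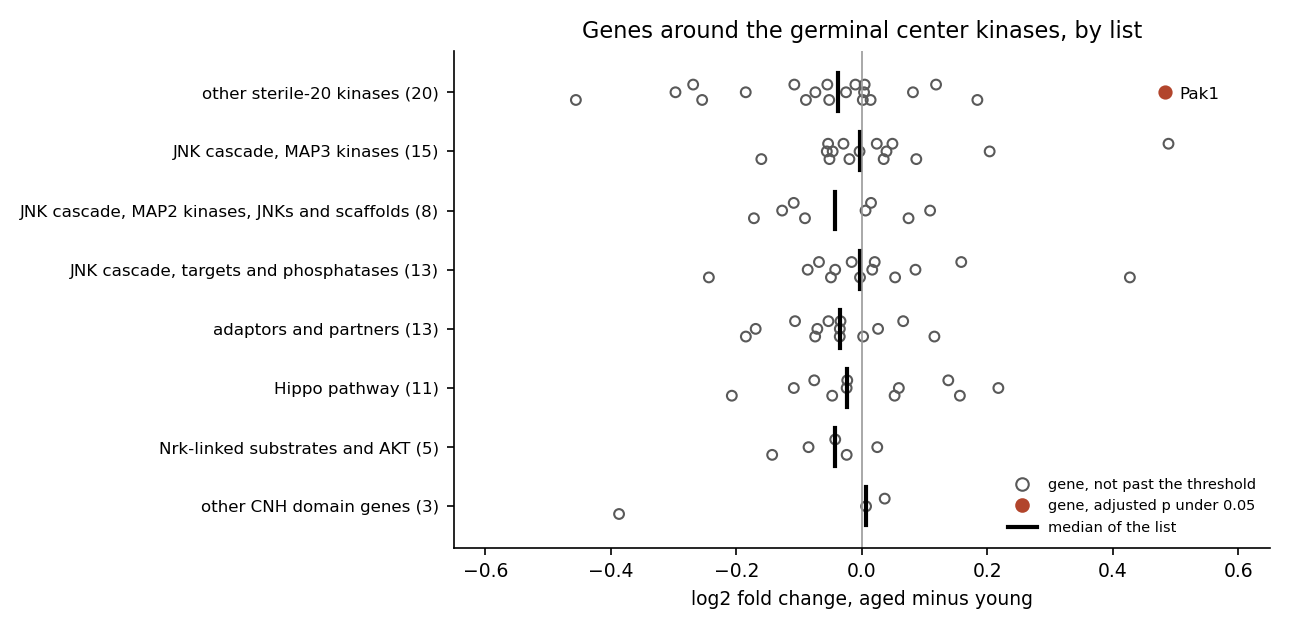
Log2 fold change of aged minus young pools (x axis) for each tested gene of the 8 lists (y axis, with the number tested in brackets), as circles with a black bar at the median of the list. Pak1 at 0.48 is the 1 gene past the threshold, and the medians of all lists lie between -0.042 and 0.0068.

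Array quality overlapped between the groups. On the aged arrays 58.1% to 61.8% of spots were well above background and the 75th percentile of the signal was 346 to 535 intensity units, and on the young arrays these values were 57.8% to 63.4% and 328 to 546. No spot was saturated, and the number of arrays limits the precision. The sort markers Ly6a, which encodes Sca-1, and Pdgfra were well above background on all 8 arrays. Of 11 cMSC markers 1 rose (Postn) and 1 fell (Thy1), where 2.25% of all genes rose and 0.802% fell. An unadjusted p under 0.05 was reached by 7 of the 11, against 13.9% of all genes, and groups did not overlap for 6, against 10.4%. Among those 6 were Ly6a with 0.66 (adjusted p = 0.0553) and the collagen genes Col1a1, Col1a2 and Col3a1 with -0.38, -0.37 and -0.39 (adjusted p = 0.102 to 0.114). Of 9 cardiomyocyte markers 2 fell, Tnni3 and Pln, where 0.802% of all genes fell. Pln was well above background on 2 aged and 4 young arrays, so it passed the filter through the young group only. The other 7 did not pass the test, with values between -0.54 and, for Ttn, 0.26. The median of the 9 was -0.48, and their summed linear signal was 8.39 to 14.3 in aged and 14.5 to 17.6 in young pools. Those of mural cells summed to 30.7 to 36.4 in aged and 35.4 to 39.3 in young pools, with 0 of 6 past the threshold. Of 5 tested neutrophil markers 3 rose, S100a9, Ly6g and Camp, where 2.25% of all genes rose. S100a9 was well above background on 4 aged and 3 young arrays, so it passed the filter through the aged group only. S100a8 and Csf3r did not pass the test, with 2.48 and -0.076. Of 7 endothelial and 3 Schwann cell markers 0 rose or fell, and 2 of 6 mesothelial markers were detected. The part of any of these cells in the Nrk difference was not tested.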

How the data were processed

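RNA of sorted cMSCs from 4 aged and 4 young pools was measured on 1-colour Agilent mouse arrays (SurePrint G3 Mouse GE v2 8x60K, Cy3), all on 1 slide. Groups and replicate numbers were taken from the sample labels. The paper gives a mean age of 4 months for the young mice of its experiments, where the labels give 5, and it names 2 mouse lines without saying which was on the arrays. Each pool has its own code in the labels, and p values measure the spread between these pools.

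For each array the authors deposited scanner output, intensity values extracted with Agilent Feature Extraction 10.10.1.1, background-subtracted and not normalized between arrays. A further deposited table holds the authors' quantile-normalized log2 values for these arrays and served as an alternative. For its background correction and filter, the sources used here name no method. The submitters' notes name limma.

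Control spots and spots with outlier flags were left out. Processed signals were put on a log2 scale, averaged over the spots of each probe and shifted so that the 75th percentile of each array was 0. The filter asked for detection (well above background) throughout at least 1 group of 4 arrays, and a gene was represented by its brightest remaining probe. By accession, a RefSeq table (GRCm38.p6) named 33895 of 56605 probes, 9464 had a current symbol in the array files and 13246 kept the name of those files. Positions of probes were read from the array files (mm9). Exons and untranslated regions were not annotated here. The comparison used lmFit and eBayes of limma 3.58.1 under R 4.3.3 (6 residual and 2.66 prior degrees of freedom), with the Benjamini-Hochberg adjustment over 20210 genes or 30824 probes and a threshold of 0.05. The fit was tested on simulated data before use. Python tables used pandas 2.3.3 with numpy 2.4.6.

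A probe that no array of a group detected has an approximate bound in place of a fold. On each such array the larger of its own signal and the dimmest detected signal was used, and these were averaged. The kinases, lists and tests were chosen with earlier results of these data known. Named were all members with all probes, the genes of each list that passed, up to 3, or the largest difference where none did, the 3 nearest protein-coding genes on each side of Nrk, and the 5 nearest profiles. Alternatives were other normalizations, normexp background correction, other filters on dim probes, averaging the kept probes of each gene, blocks by replicate number, pool code and slide row, array weights, the trend and robust settings of eBayes, the table of the authors and leaving out each pool.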

Additional observations from a re-analysis of the deposited data

Results flagged for a closer look

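Among 40 groups of 4 pools, the aged and the young pools of each of the 20 probes, 1 group had a pool far from the others. At the Map4k3 probe A_52_P320044, young replicate 3 gave a normalized log2 signal of -0.61, while the other young pools lay between -0.36 and -0.34. Its gap to the nearest pool was 0.927 of the range of the group, past Dixon's critical value for 4 samples, and chance flags about 1 in 20 groups.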

How the results depend on the processing

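The counts of relatives of Nrk that rose or fell were 0 under every alternative. Nrk had a log2 difference of -0.87 with normexp background correction and of -1.59 in the table of the authors. In its other alternatives it lay between -3.81 and -3.56, with -3.81 to -3.62 on leaving out each pool, and the filter for probes well above background on all 8 arrays gave it no value. The Tnik probe A_52_P663757 made 1 probe that fell with array weights. Of the listed genes, 0 rose with the array median as scale, with normexp, without a filter on dim probes and with either replicate block, and 0 to 1 on leaving out each pool. With array weights 1 listed gene fell, Myo3b. The sign of Map4k2 turned with cyclic loess normalization (0.0041) and without aged replicates 1 or 4 or young replicates 2 or 4 (-0.12 to 0.071 on leaving out each pool), and that of Map4k4 with array weights (-0.0045). The causes were not tested. Of all genes 454 rose and 162 fell, against 167 and 37 without a filter on dim probes, 663 and 398 with array weights, and 247 to 343 and 69 to 153 on leaving out each pool.

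Same-numbered pools correlated with 0.18, -0.17 and -0.27 in their deviations from the group means. So few values cannot decide whether the pools were paired. By pool code, aged replicate 1 and young replicate 5 correlated with 0.14, each the best match of the other. In the block by number these pools have no partner and add nothing to the difference. With the replicate block by number 14 of all genes rose and 2 fell, Nrk differed by -3.56, Tnik by -0.072 and Map4k1 by 0.34. With the replicate block by pool code 207 rose and 52 fell, and Nrk differed by -3.72. The call of Pak1 was lost with both (adjusted p = 0.242 by number and 0.0856 by code). For Nrk, detection limits every fold to an approximate bound.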
